A study of Mus musculus with 2 samples.

Results

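The spots described here were the 62 spots, of 5561 kept in all, with the highest levels of 5 genes known from dentate granule cells. RNA was captured on 10x Visium slides, on which each spot counts the transcripts of a small area of tissue as unique molecular identifiers (UMIs), from 2 frozen brain sections, each 10 µm thick. Both sections came from wildtype mice of the C57BL/6 strain and both were labelled ZT12, as replicates 1 and 2 of a single group. No treatment or allele was named, and nothing said whether the sections came from separate animals. Every p-value below therefore reflects only how far differences between spot sets varied between these sections. That spread was pooled wholly or largely over genes, and it may be technical. Age was not stated. The series asks how regions of the wildtype brain differ in their transcripts and proteins, and proteins were not analysed here.

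Granule spots were chosen from measured values. For every spot with at least 500 UMIs, the score was the mean over Dsp, Prox1, C1ql2, Tdo2 and Lct of the natural logarithm of 1 plus the gene's UMIs per 10000 UMIs of the spot. The 40 highest of 3030 spots in section 1 and the 22 highest of 2531 spots in section 2 were taken, and the 2990 and 2509 remaining spots served as the comparison. A spot can hold several cells of different types, so a lower level cannot tell fewer cells of a type from less RNA per cell.

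Dentate granule cells are the small, densely packed excitatory neurons of the dentate gyrus, the input stage of the hippocampus. They receive cortical input on their dendrites, and their axons, the mossy fibres, end on CA3 pyramidal cells in large boutons rich in zinc. The transcription factor Prox1 marks the lineage, C1ql2 is a secreted C1q-like protein of the mossy fibre synapse, and new granule cells are added in adult life.

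The 5 genes of the score lie on 3 chromosomes, and the stretch of 250 bases before each gene's annotated start shows what these co-measured genes carry upstream. Dsp, which encodes the cell junction protein desmoplakin, occupies chr13:38151294-38198577. Prox1 occupies chr1:190118035-190170827, C1ql2 chr1:120340582-120343174, and Lct, the gene of the intestinal enzyme lactase, chr1:128284756-128328318. Tdo2, which encodes the tryptophan-degrading enzyme tryptophan 2,3-dioxygenase, occupies chr3:81958412-81975728. Dsp and C1ql2 are on the plus strand and the other 3 on the minus strand. Gene positions and the sequences, written 5′ to 3′ on the strand of the gene, are those of RefSeq on GRCm38.p6. Capitals mark matches on either strand to an E-box of the NeuroD type (CAGATG or CATCTG), to the E-box CATATG, to the short motif of nuclear factor I (TTGGC or GCCAA) and to a TATA box (TATAAA or TTTATA). The Prox1 stretch is that of the outer of its 2 listed starts.
Dsp: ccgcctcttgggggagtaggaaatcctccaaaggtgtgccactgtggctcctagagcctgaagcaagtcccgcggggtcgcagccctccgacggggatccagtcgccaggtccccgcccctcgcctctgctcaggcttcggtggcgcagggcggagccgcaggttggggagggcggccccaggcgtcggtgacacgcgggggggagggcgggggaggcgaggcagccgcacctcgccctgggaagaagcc
Prox1: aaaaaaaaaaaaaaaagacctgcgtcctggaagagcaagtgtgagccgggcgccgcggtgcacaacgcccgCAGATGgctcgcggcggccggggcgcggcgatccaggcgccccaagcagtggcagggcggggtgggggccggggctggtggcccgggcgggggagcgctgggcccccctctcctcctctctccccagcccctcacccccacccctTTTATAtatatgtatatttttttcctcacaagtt
C1ql2: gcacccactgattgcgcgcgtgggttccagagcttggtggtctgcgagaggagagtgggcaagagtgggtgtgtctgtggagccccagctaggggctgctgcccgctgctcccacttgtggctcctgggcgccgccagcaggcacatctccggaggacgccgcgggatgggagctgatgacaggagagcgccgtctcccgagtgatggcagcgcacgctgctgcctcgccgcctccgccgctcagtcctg
Tdo2: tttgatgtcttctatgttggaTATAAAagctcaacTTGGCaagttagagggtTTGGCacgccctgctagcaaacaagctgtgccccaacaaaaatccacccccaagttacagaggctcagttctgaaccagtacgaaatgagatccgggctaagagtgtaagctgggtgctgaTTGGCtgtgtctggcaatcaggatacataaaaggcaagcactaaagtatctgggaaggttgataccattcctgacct
Lct: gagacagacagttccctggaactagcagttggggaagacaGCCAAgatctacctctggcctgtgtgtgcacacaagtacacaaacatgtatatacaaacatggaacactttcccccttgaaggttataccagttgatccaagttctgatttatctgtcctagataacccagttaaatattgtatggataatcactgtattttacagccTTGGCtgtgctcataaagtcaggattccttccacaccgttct

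The stretch before Dsp (chr13:38151044-38151293) and that before C1ql2 (chr1:120340332-120340581) held no match, and their shares of G and C were 72.4% and 68.8%. The Prox1 stretch (chr1:190170828-190171077) was 64.8% G and C and held CAGATG starting 179 bases, and TTTATA 34 bases, before the start. Those of Lct (chr1:128328319-128328568) and Tdo2 (chr3:81975729-81975978) were poorer in G and C, at 42.8% and 46.4% against a median of 52.4% over 32851 such stretches. Lct held GCCAA at 210 and TTGGC at 42 bases before its start. Tdo2 held TATAAA at 229 bases and TTGGC at 215, 198 and 77 bases. Of all the stretches, 14.4% held the NeuroD type of E-box, 3.46% CATATG, 41.5% the short nuclear factor I motif and 12.4% the TATA box. The upstream stretches of the 5 genes therefore differed widely in base composition, and no searched motif was in all of them.

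The granule score fell smoothly with rank, with no gap at the limit. It ran from 0.605 to 1.08 with a median of 0.793 in section 1, and from 0.644 to 0.945 with a median of 0.724 in section 2. In section 1 the last spot taken scored 0.605162 and the first left out 0.605134, and the latter owed its score to 1 UMI of C1ql2 among 510 UMIs. In section 2 the last spot taken scored 0.6441 and the first left out 0.6431, with all of Dsp, Prox1, C1ql2 and Lct detected in both.

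**Figure D1:**
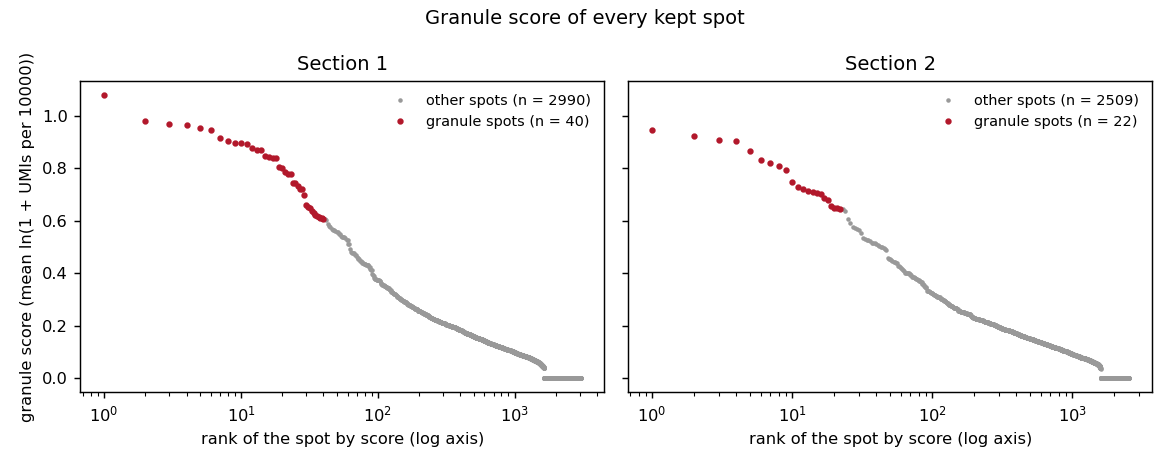
Granule score of each kept spot against its rank, on a log axis, in section 1 (left) and section 2 (right). Red points are the 40 and 22 granule spots and grey points the 2990 and 2509 other spots, and the curve runs through the limit without a step.

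The 5 genes chose the spots, so their levels are a description and were not tested. Levels are UMIs per 1000000 UMIs (CPM) summed over the spots of a set. Dsp reached 153 CPM in the granule spots of section 1 and 165 in those of section 2, where the remaining spots had 5.38 and 6.70 CPM. Lct stood at 106 and 106 CPM against 5.45 and 5.16. C1ql2 stood at 228 and 201 CPM against 15.8 and 19.0, Tdo2 at 22.3 and 26.0 against 1.61 and 1.61, and Prox1 at 196 and 158 against 25.8 and 25.4. The ratio was thus highest for Dsp, at 28.4 and 24.7, and lowest for Prox1, at 7.62 and 6.20.

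Each gene could also be read in spots chosen with the other 4 alone. Dsp was then 21.5-fold higher in section 1 and 20.4-fold in section 2, Lct 17.3-fold and 16.6-fold, and Tdo2 13.1-fold and 11.9-fold. C1ql2 was 12.3-fold and 9.15-fold higher and Prox1 7.26-fold and 5.64-fold. Leaving a gene out of the score therefore kept its ratio well above 1 in both sections.

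The granule spots were deep. Section 1 held 1343999 UMIs in its granule spots, from 19698 to 48039 a spot (median 32332.5, against 17989.5 in the other spots), and section 2 held 653104, from 20142 to 42738 (median 28622.5 against 21514). Mitochondrial UMIs made up 10.4% and 9.83% of the total in granule spots and 14.96% and 14.4% in other spots, and the part of this difference in the results below was not tested. No granule barcode was shared between the files. Markers of other cell types were present in the granule spots, most of them at lower summed levels than in the other spots. The 9 oligodendrocyte markers summed to 4626 and 5824 CPM, against 11627 and 12227 in the other spots. The 9 astrocyte markers summed to 2424 and 2157 CPM against 3561 and 2946, and the 10 interneuron markers to 1057 and 1012 against 1531 and 1787. The 6 CA1 markers summed to 124 and 133 CPM, against 1218 and 1286 in the CA1-scored spots introduced below, and 196 and 238 in all other spots. The 7 CA3 markers summed to 207 and 224 CPM, above the 164 and 173 of all other spots and below the 751 and 767 of the CA3-scored spots, with Grik4 and Cpne4 called higher against all other spots and Spink8 lower. The CA1-scored and CA3-scored spots were chosen on genes of these same CA1 and CA3 lists. Their high sums of those lists therefore follow from the choice and are no measure of how pure the granule spots are. The 5 CA2 markers summed to 1285 and 1715 CPM in granule spots against 1446 and 1628 in all other spots, in opposite order in the 2 sections. The share of the differences that comes from these other cells was not tested.

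Genes outside the score were tested by summing the counts of the granule spots and of all other spots in each section and fitting these 4 sums with edgeR's quasi-likelihood test, with a term for the section. Of 15862 genes tested, 467 (2.94%) were at least 2-fold higher in granule spots and 674 (4.25%) at least 2-fold lower at a Benjamini-Hochberg adjusted p below 0.05. Of these, 466 and 659 had the same sign in both sections. At any fold, 1665 genes (10.5%) were higher and 1941 (12.2%) lower. With 1 residual degree of freedom the fit took the spread from all genes together, so a gene's own spread did not enter. When the granule sum of section 1 was left out 43 genes were called 2-fold higher and 0 lower (516 and 921 at an unadjusted p below 0.05), and 210 and 48 when that of section 2 was left out. The balance of calls moved with the scaling and the tool. Higher genes were 40.9% of the 2-fold calls here, 53.9% without TMM scaling factors (584 against 500), 56.8% with DESeq2 (359 against 273), 64.7% with limma on spot means (381 against 208) and 54.3% without the section term (380 against 320).

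Transcription factors, lipid enzymes and guidance molecules were among the genes with the largest differences at an average level of at least 5 on the log2 CPM scale. Epha7, an ephrin receptor of axon guidance, stood at 204 and 193 CPM in granule spots against 32.4 and 32.4 elsewhere, a log2 fold change of 2.52 ± 0.11 (SE). Bhlhe22, a basic helix-loop-helix repressor, stood at 191 and 175 CPM against 29.3 and 32.6 (2.49 ± 0.11). Dgkh, a diacylglycerol kinase, stood at 318 and 326 CPM against 52.9 and 54.9 (2.48 ± 0.10). In each case both granule values lay above both other values by several fold, and the sections were close to each other.

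The next genes in that order were Wipf3, an actin regulator (592 and 625 CPM against 107 and 126), Fam163b (506 and 447 against 92.4 and 98.0) and Prdm8, a transcriptional repressor (155 and 156 against 31.6 and 33.8). Against the CA1-scored spots introduced below Wipf3 had no call, and its call against CA3-scored spots was lost in 3 of 13 alternatives. Prdm8 had no call against CA3-scored spots. Neurod2, a neuronal differentiation factor, stood at 235 and 277 CPM against 55.7 and 50.1. Rab40b, Sema5a, Plekhg5, Dgat2, Limd2, Synpr, Jun and Stxbp6 completed the 15. Of these Dgat2, which makes triglycerides, stood at 278 and 283 CPM against 58.2 and 82.4, and Sema5a, a semaphorin, at 176 and 110 CPM against 31.7 and 35.3. Their log2 fold changes ran from 1.90 to 2.52 and the largest edgeR adjusted p was 7.93e-49. All kept their direction and call in each of the 17 alternatives that refitted all sums. Without the granule sum of section 1, 10 of the 15 kept it (not Rab40b, Sema5a, Dgat2, Limd2 and Synpr), and without that of section 2 all 15.

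Among the genes with the largest falls, 4 of 8 were haemoglobin genes. Hba-a1 stood at 58.8 and 107 CPM in granule spots against 255 and 321 elsewhere (log2 fold change -1.98 ± 0.11), and Hbb-bs at 212 and 270 CPM against 859 and 728 (-1.87 ± 0.08). Hba-a2 and Hbb-bt fell by 1.93 and 1.90 on the log2 scale. The others were Clic4, a chloride channel protein (22.3 and 18.4 CPM against 80.9 and 59.4), Plcb4, a phospholipase (26.0 and 30.6 against 105 and 77.8), Plekhg1 and Gjb1, a gap junction gene of oligodendrocytes (11.2 and 13.8 against 39.7 and 38.8). These 8 calls were lost without the granule sum of section 1, and that of Clic4 without that of section 2. In both sections the summed granule spots held fewer transcripts of blood and of oligodendrocytes per UMI than the summed other spots. For blood the median spots differed less than the sums. The 5 red blood cell markers summed to 353 and 522 CPM against 1470 and 1436. Spot medians were 302 and 493 CPM against 458 and 660, and the highest other spots reached 49940 and 78838. CA1-scored spots, introduced below, summed to 428 and 477 CPM and CA3-scored spots to 335 and 615. Against either set 0 of 4 tested markers were called.

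All 9 oligodendrocyte markers were lower, with Mog, a myelin protein gene, at 78.1 and 106 CPM against 163 and 189. Of 9 astrocyte markers 8 were lower, of 9 microglial markers 6, of 10 interneuron markers 7 and of 5 red blood cell markers 5, beside 12.2% of all tested genes. Against the CA1-scored spots introduced below, 0 of 9 astrocyte and 0 of 9 microglial markers were called (2 and 2 lower at an unadjusted p below 0.05 with edgeR). There 4 of 10 interneuron markers were lower. Against CA3-scored spots 3 astrocyte and 0 microglial markers were lower, and 4 interneuron markers were lower and 1 higher.

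Of the 18 genes listed as associated with the dentate gyrus, 17 were higher, with a median log2 fold change of 1.96 against -0.07 over all tested genes. This list was drawn up with earlier results of these data known. Trpc6, a calcium-permeable cation channel, stood at 55.1 and 67.4 CPM in granule spots against 7.80 and 6.03 elsewhere (2.98 ± 0.21). Among the 40 spots of section 1 it ran from 0.0 to 187 CPM with a median of 47.2, and among the 22 of section 2 from 0.0 to 205 with a median of 53.2. Npnt, an extracellular matrix protein, stood at 64.0 and 52.1 CPM against 13.5 and 9.96 (2.19 ± 0.19). Synpr, a synaptic vesicle protein of mossy fibres, stood at 315 and 263 CPM against 63.4 and 86.4 (1.91 ± 0.09), and its lowest granule spots were at 125 and 47.5 CPM. Calb1, the calcium buffer calbindin, stood at 226 and 260 CPM against 115 and 124 (0.91 ± 0.09). The 1 gene without a call, Sema5b, was at 20.1 and 16.8 CPM against 14.4 and 18.7.

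**Figure D2:**
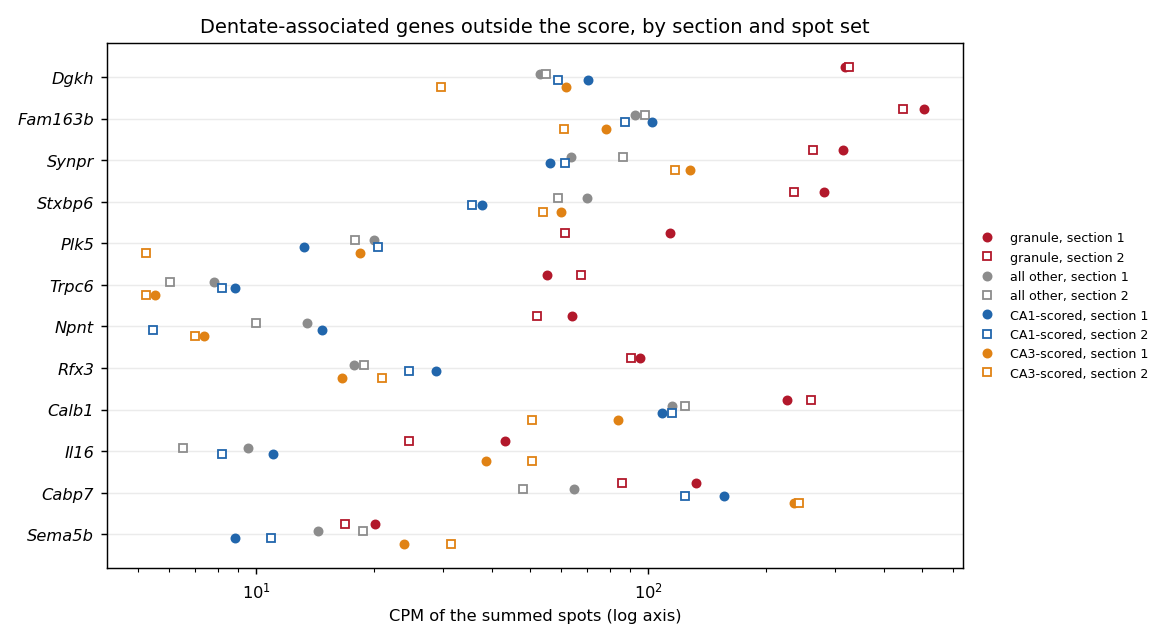
CPM, on a log axis, of 12 of the listed dentate genes in the summed granule, all other, CA1-scored and CA3-scored spots. Filled circles are section 1 and open squares section 2. Dgkh and Fam163b lie apart from all 3 comparison sets, whereas Cabp7 lies lower in granule than in CA3-scored spots (132 and 85.7 against 235 and 242 CPM).

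Of 21 transcription factors of the forebrain, 12 were higher and 5 lower. Beside Bhlhe22 and Neurod2, these included Neurod1, needed for the formation of granule cells (69.2 and 78.1 CPM against 26.7 and 11.2, 1.78 ± 0.17), Bcl11b, which acts in granule cell maturation (168 and 159 against 40.3 and 56.8, 1.72 ± 0.11), Nfib, of the nuclear factor I family (209 and 193 against 74.3 and 63.6, 1.43 ± 0.10), and Zbtb20, a hippocampal regulator (160 and 113 against 59.6 and 49.9, 1.24 ± 0.12).

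The partners of C1ql2 showed no common direction. In the mossy fibre synapse C1ql2 and C1ql3 bridge presynaptic neurexin and postsynaptic kainate receptors. Of 16 such genes outside the score 6 were higher and 5 lower. C1ql3 stood at 25.3 and 24.5 CPM against 11.7 and 8.88 (1.12 ± 0.25). Grik5, a high-affinity kainate subunit, stood at 200 and 228 CPM against 115 and 164 (0.55 ± 0.10, a call lost without the section term). Grik2 and Grik3, further kainate subunits, were at 39.4 and 29.1, and at 40.9 and 30.6 CPM, against 23.1 and 26.7, and 26.4 and 28.0, without a call. Nrxn3, a neurexin, was lower, at 118 and 124 CPM against 162 and 186 (-0.61 ± 0.11). C1ql4 had 0 UMIs in the granule spots of both sections, which allows up to 1.502 CPM (3 counts over both sets), and stood at 3.54 and 2.07 CPM elsewhere.

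Genes of transmitter release divided, with 8 of 18 higher and 7 lower. Slc30a3, the transporter that loads zinc into synaptic vesicles, stood at 206 and 198 CPM against 62.4 and 67.4 (1.55 ± 0.10). Nptx1, a secreted pentraxin that gathers glutamate receptors, stood at 628 and 462 CPM against 160 and 147 (1.74 ± 0.08). Syt7, a calcium sensor for facilitation, stood at 452 and 412 CPM against 217 and 191 (0.98 ± 0.08), and Cplx2, a complexin, at 957 and 1073 against 412 and 552 (0.99 ± 0.07). In contrast Cplx1, its paralog, stood at 517 and 588 CPM against 856 and 792 (-0.70 ± 0.07), and the vesicle protein gene Sv2b at 93.0 and 93.4 against 195 and 173 (-1.10 ± 0.11). Both complexins and Sv2b kept their granule values apart from the others in both sections.

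Against all other spots, receptor subunits were called more often higher than lower, where 10.5% of all tested genes were higher and 12.2% lower. Against the CA1-scored spots introduced below this did not hold. There 2 of 15 tested glutamate receptor genes were higher and 4 lower, beside 6.67% and 7.15% of all genes tested. Gria1 was among those 4, a call lost in 8 of 13 alternatives. Glutamate receptors gave 7 higher and 4 lower genes of 17. Grm2, a presynaptic metabotropic receptor, led at 69.2 and 67.4 CPM against 16.0 and 13.9 (2.07 ± 0.18), followed by the NMDA receptor subunit Grin2a at 304 and 251 against 112 and 107 (1.26 ± 0.09). The AMPA receptor subunits Gria1 and Gria2 were at 591 and 547, and at 440 and 390 CPM, against 218 and 262, and 209 and 219. Of 14 GABA receptor genes 6 were higher and 4 lower. Gabra5 stood at 147 and 110 CPM against 46.1 and 46.0 (1.42 ± 0.12). Gabrd, the delta subunit of extrasynaptic receptors, stood at 133 and 133 CPM against 77.3 and 81.3 (0.65 ± 0.11), whereas Gabra3 was lower at 17.9 and 35.2 against 56.7 and 63.6 (-1.42 ± 0.19).

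Of 37 ion channel genes 13 were higher and 10 lower, beside 10.5% and 12.2% of all tested genes. The counts were even against the CA sets introduced below. Of 36 tested there, 9 were higher and 9 lower against CA1-scored spots, and 7 and 7 against CA3-scored spots. The values that follow are against all other spots. Cacna1h, a low-voltage-activated calcium channel, stood at 99.0 and 88.8 CPM against 22.7 and 31.6 (1.77 ± 0.14), and Cacna1e at 257 and 228 against 77.7 and 92.7 (1.45 ± 0.10). The sodium channel gene Scn3a stood at 63.2 and 58.2 CPM against 21.8 and 23.9 (1.34 ± 0.17), and the potassium channel gene Kcnj4 at 114 and 142 against 46.9 and 65.5 (1.11 ± 0.12). Kcnc2, a channel of fast-spiking cells, was lower, at 57.3 and 50.5 CPM against 108 and 105 (-1.07 ± 0.14). Of 17 calcium-binding proteins 6 were higher, among them Ncald (469 and 470 CPM against 236 and 230), and 5 lower, among them the interneuron gene Pvalb (141 and 91.9 against 400 and 231).

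Of 16 postsynaptic and dendritic genes 9 were higher and 2 lower. Icam5, a dendritic adhesion molecule of the forebrain, stood at 258 and 325 CPM against 56.9 and 108 (1.81 ± 0.09). Camk2b, a calcium-dependent kinase, stood at 1417 and 1265 CPM against 472 and 490 (1.38 ± 0.06), and Ddn, dendrin, at 662 and 695 against 226 and 314 (1.26 ± 0.07). Prkcb, a protein kinase C, was lower at 262 and 199 CPM against 333 and 329 (-0.60 ± 0.09).

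Immediate early genes, which neurons transcribe within minutes of activity, did not move together. Of 21, 4 were higher and 7 lower. Jun stood at 131 and 132 CPM against 32.2 and 33.4 (1.90 ± 0.13), and Egr3 at 154 and 91.9 against 70.7 and 52.2 (0.92 ± 0.12). Arc was lower, at 40.2 and 18.4 CPM against 70.6 and 30.8 (-0.90 ± 0.18, a call lost with limma on spot means and without the section term), and so was Nr4a1, at 29.0 and 18.4 against 61.0 and 32.0 (-1.11 ± 0.19, a call lost without the section term). Arc and Nr4a1 were higher in section 1 than in section 2 in both spot sets, whereas Jun was level between sections.

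Of 11 genes of the corticosteroid response 3 were higher and 3 lower, beside 10.5% and 12.2% of all tested genes. Nr3c2, the mineralocorticoid receptor, stood at 78.9 and 50.5 CPM against 23.6 and 20.7 (1.49 ± 0.17), and Fkbp5, a steroid-induced chaperone, at 58.8 and 42.9 against 22.4 and 23.0 (1.12 ± 0.18). Against the CA1-scored spots introduced below, Fkbp5 was the 1 gene of this list called higher, a call lost in 5 of 13 alternatives, and 2 were lower. Against CA3-scored spots 0 were higher and 2 lower. Nr3c2 was called against neither set. Neuropeptide genes were mostly lower, 9 of 16, with 2 higher. Pdyn, which encodes the dynorphins released from mossy fibres, stood at 62.5 and 85.7 CPM against 15.6 and 37.3 (1.52 ± 0.16, a call lost without the section term). Cck, cholecystokinin, was lower at 470 and 453 CPM against 584 and 732 (-0.58 ± 0.07).

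Genes that share a pathway or a junction with Dsp and Tdo2 gave mixed counts, and so did those of the Wnt pathway and of neurogenesis. In each of these lists the share called higher lay near or below the 10.5% of all tested genes, so the counts of higher genes are no result about the lists. Of 17 tested desmosome and junction genes besides Dsp, 2 were higher and 4 lower. Pkp2, the desmosomal protein plakophilin 2, stood at 35.7 and 47.5 CPM against 11.6 and 15.3 (1.52 ± 0.21), and Ppl, periplakin, at 7.44 and 7.66 against 1.01 and 0.779 (2.91 ± 0.72), while Jup, plakoglobin, was lower at 35.0 and 29.1 against 56.4 and 49.4 (-0.82 ± 0.18). Of 9 tested genes of tryptophan metabolism besides Tdo2, 0 passed the test with edgeR or with DESeq2 (1 and 0 at an unadjusted p below 0.05), and the 12 genes of this list summed to 21.6 and 19.9 CPM against 30.6 and 31.1. Of 24 Wnt pathway genes 2 were higher, Frzb, a secreted Wnt antagonist (35.0 and 30.6 CPM against 11.05 and 10.9), and Wnt7b (55.1 and 79.6 against 23.7 and 31.4), and 5 lower. Of 18 genes of neurogenesis 2 were higher, Sox11 (29.8 and 32.2 CPM against 14.5 and 20.1) and Igfbpl1 (5.21 and 12.2 against 0.698 and 2.95), and 3 lower. Both are genes of immature neurons. DESeq2 called neither, with an adjusted p of 0.12 for Sox11 and none given for Igfbpl1 or for Ppl. Sox11 and Igfbpl1 lost their calls without the section term, in the 20 and 11 highest spots and with the score without logarithm, and Igfbpl1 also with the score without Dsp. Dcx, doublecortin, stood at 5.95 and 6.12 CPM against 7.59 and 9.76 without a call.

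**Figure D3:**
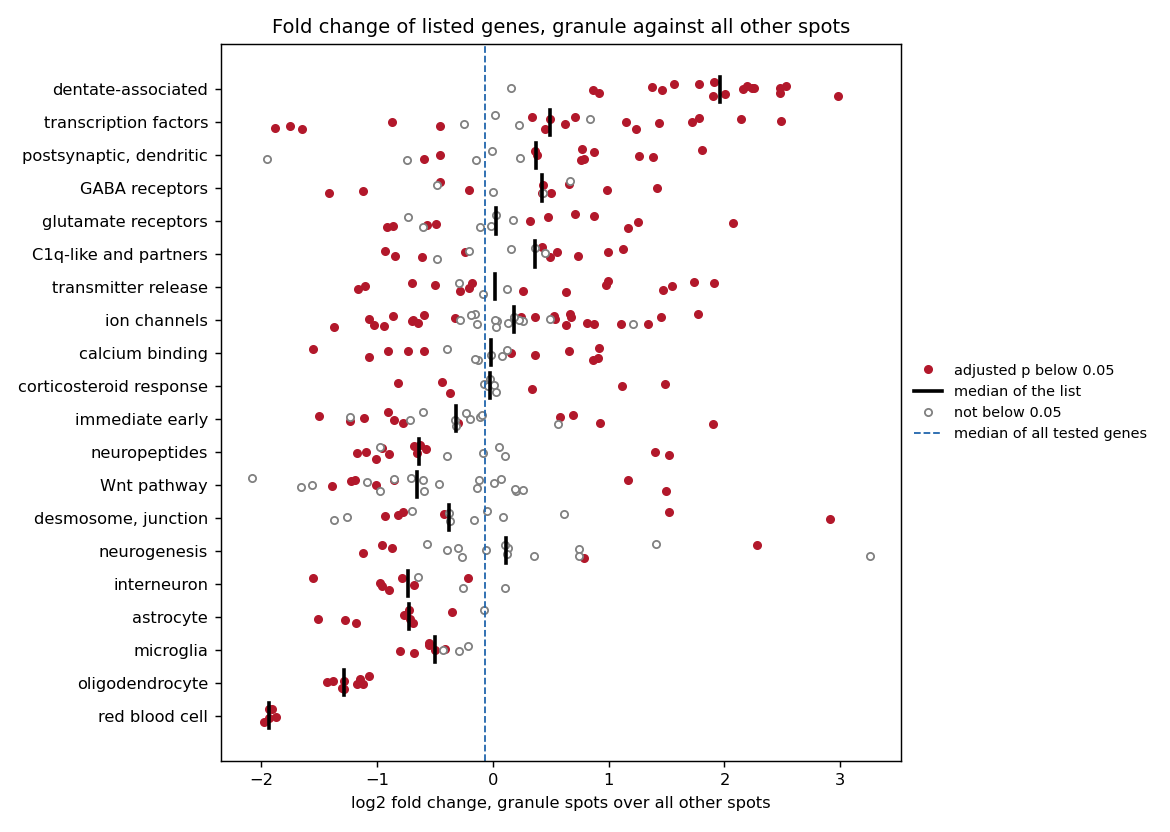
Log2 fold change, granule over all other spots, of the tested genes of 20 lists. Red points passed an adjusted p of 0.05 and open points did not, black bars are list medians and the dashed line is the median of all tested genes. Genes with 0 UMIs in the granule spots of both sections were left out, since their fold has no fixed value. The dentate list sits near 2 and the oligodendrocyte and red blood cell lists below -1, while most other lists straddle 0.

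The genes beside those of the score were read as well, since counts of neighbours can share reads. Mcm6, a replication licensing gene on the minus strand 3256 bases upstream of Lct, stood at 43.2 and 47.5 CPM in granule spots against 7.09 and 7.54 elsewhere (2.52 ± 0.23, edgeR adjusted p = 4.09e-27). The noncoding gene Prox1os overlaps Prox1 by 532 bases at its start and stood at 26.0 and 52.1 CPM against 7.21 and 6.70 (2.25 ± 0.25). Both lie beside genes on which the spots were chosen. Whether the counting used strand was not given in the sources used here, so reads in the shared 532 bases cannot be assigned to Prox1os or to Prox1. How many of the Prox1os UMIs come from there was not examined. Mcm6 and Lct do not overlap and lie on the same strand. Both neighbours were chosen after their values were seen. Ctso, 1686 bases from Tdo2, went the other way, at 8.18 and 13.8 CPM against 19.0 and 16.4 (-0.95 ± 0.31, edgeR adjusted p = 0.0129). Of the other neighbours Ubxn4, on the far side of Lct, was at 61.0 and 52.1 CPM against 49.2 and 43.5, and neither it nor Riok1, Snrnp48, Smyd2 or Steap3 was called, while Marco and Asic5 had 0 UMIs in the granule spots of both sections, which again allows up to 1.502 CPM.

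To set granule spots against the other principal cells of the hippocampus, like numbers of spots were chosen by the markers of CA1 and of CA3 pyramidal cells. These were 40 and 21 CA1-scored and 40 and 21 CA3-scored spots. In section 2, 1 spot in both sets was left out. The 6 sums were fitted together by edgeR. Genes of either marker score are not results here. Both comparisons use the same granule sums. Some CA3-scored spots were shallow, down to 770 and 542 UMIs, against 6384 and 19536 for the CA1-scored. Some also held other tissue. In section 1 single CA3-scored spots reached 79343 CPM of ependymal and choroid plexus markers and 54316 CPM of oligodendrocyte markers. The 6 thalamic markers summed to 574 and 303 CPM in CA3-scored spots, against 267 and 259 in granule spots. Of these 6, 4 were called lower in granule spots. The part of such tissue in the differences from CA3-scored spots was not tested. With a minimum of 5000 UMIs per spot all genes named below kept their calls.

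Against CA1-scored spots, 259 of 9835 tested genes (2.63%) were 2-fold higher and 205 (2.08%) 2-fold lower in granule spots (656, 6.67%, and 703, 7.15%, at any fold). DESeq2 called 101 and 91, and limma on spot means 165 and 103. Oligodendrocyte markers stood at 5085 and 5611 CPM in the CA1-scored spots, near the 4626 and 5824 of the granule spots, and 0 of 9 passed edgeR's test, also unadjusted and with DESeq2. Stxbp6, a SNARE-binding protein, stood at 281 and 236 CPM in granule against 37.6 and 35.5 in CA1-scored spots (2.76 ± 0.15), Grm2 at 69.2 and 67.4 against 11.8 and 5.46 (2.75 ± 0.29), and Pdyn at 62.5 and 85.7 against 11.1 and 12.3 (2.53 ± 0.27). Kctd4, Plk5, Plekha2 and Dock10 followed, and the largest edgeR adjusted p of the 8 was 2.79e-11.

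On the lower side, Gpr161, a receptor of the primary cilium, stood at 8.18 and 12.2 CPM in granule against 78.2 and 68.3 in CA1-scored spots (-3.03 ± 0.28). Neurod6, a pyramidal cell transcription factor, stood at 43.2 and 23.0 CPM against 226 and 232 (-2.74 ± 0.16), while its relatives Neurod1 and Neurod2 were higher in granule spots (1.38 ± 0.23 and 0.64 ± 0.11, the latter lost with DESeq2, with limma on spot means and without the section term). Rasd1, Ptpru, Ccn3, Sema3e, Klk8 and Lpl followed. Of 19 tested immediate early genes 10 were lower and 2 higher. Dusp6, a phosphatase induced by MAP kinase signalling, stood at 20.1 and 21.4 CPM against 81.9 and 83.3 (-2.08 ± 0.23) and Arc at 40.2 and 18.4 against 110 and 75.1 (-1.66 ± 0.19), whereas Jun was at 131 and 132 against 25.1 and 27.3 (2.26 ± 0.20).

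Of 17 calcium-binding proteins 4 were higher than in CA1-scored spots (Calb1, Ncald, Hpcal1 and Necab3) and 7 lower. Of the lower genes Hpca, hippocalcin, stood at 837 and 971 CPM against 1844 and 2476 (-1.31 ± 0.08), although it was higher in granule spots than in all other spots (0.66 ± 0.07, a call lost without the section term). The kinase gene Prkcb was lower, at 262 and 199 CPM against 767 and 799 (-1.81 ± 0.10). The Wnt-related gene Dkk3 stood at 96.7 and 81.2 CPM against 359 and 362 (-2.06 ± 0.12), and Wnt7b at 55.1 and 79.6 against 15.5 and 20.5 (1.80 ± 0.25). Gabrd was higher, at 133 and 133 CPM against 69.4 and 46.5 (1.04 ± 0.16), and of 13 GABA receptor genes it was the 1 called higher, with 2 lower. Grin2a and Grin2b were lower (-0.52 ± 0.10 and -0.57 ± 0.11), both calls lost with DESeq2, with limma on spot means and without the section term.

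Against CA3-scored spots, 290 of 9835 genes (2.95%) were 2-fold higher and 198 (2.01%) 2-fold lower (801, 8.14%, and 893, 9.08%, at any fold). DESeq2 called 103 and 80, and limma on spot means 284 and 101. Higher genes were 59.4% of these calls here, 69.1% without TMM factors and 73.8% with limma. Oligodendrocyte markers stood at 7316 and 6319 CPM in the CA3-scored spots, above the granule spots, and 8 of 9 were called lower in granule spots (1 with DESeq2). Plk5, a polo-like kinase of neurons, stood at 114 and 61.2 CPM in granule against 18.4 and 5.23 in CA3-scored spots (2.70 ± 0.28). Fam163b stood at 506 and 447 CPM against 78.1 and 61.0 (2.67 ± 0.13), Dgkh at 318 and 326 against 61.6 and 29.6 (2.60 ± 0.16), and Grm2 at 69.2 and 67.4 against 10.1 and 13.9 (2.49 ± 0.30). Plekha2, Robo3, Doc2b and Rfx3 followed. Of these Doc2b, a calcium sensor of vesicle release, was at 100 and 78.1 CPM against 13.8 and 20.9 in CA3-scored but 90.7 and 83.3 in CA1-scored spots.

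Neurod6 had the largest fall of the named genes here, with 43.2 and 23.0 CPM in granule spots and 286 and 216 CPM in CA3-scored spots (-2.92 ± 0.17). Lats2, a Hippo pathway kinase, stood at 8.93 and 10.7 CPM in granule against 76.3 and 41.8 (-2.82 ± 0.31) and Kcnq5, a potassium channel, at 8.93 and 13.8 against 68.9 and 61.0 (-2.72 ± 0.30). Klk8, Hs3st4, Lpl, Cpne7 and Nr4a3 followed. Of 18 genes of transmitter release 10 were lower and 4 higher. Sv2b stood at 93.0 and 93.4 CPM against 392 and 385 (-2.14 ± 0.12) and Slc17a7, the vesicular glutamate transporter, at 1013 and 1030 against 1503 and 1596 (-0.68 ± 0.08). Slc30a3 was higher, at 206 and 198 CPM against 88.2 and 45.3 (1.39 ± 0.16). Chgb, a granin of dense-core vesicles, stood at 376 and 349 CPM against 1212 and 1071 (-1.74 ± 0.09). Bcl11b was higher against CA3-scored spots (168 and 159 CPM against 34.0 and 54.0, 1.92 ± 0.18), while its CA1-scored level was 150 and 123 CPM.

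**Figure D4:**
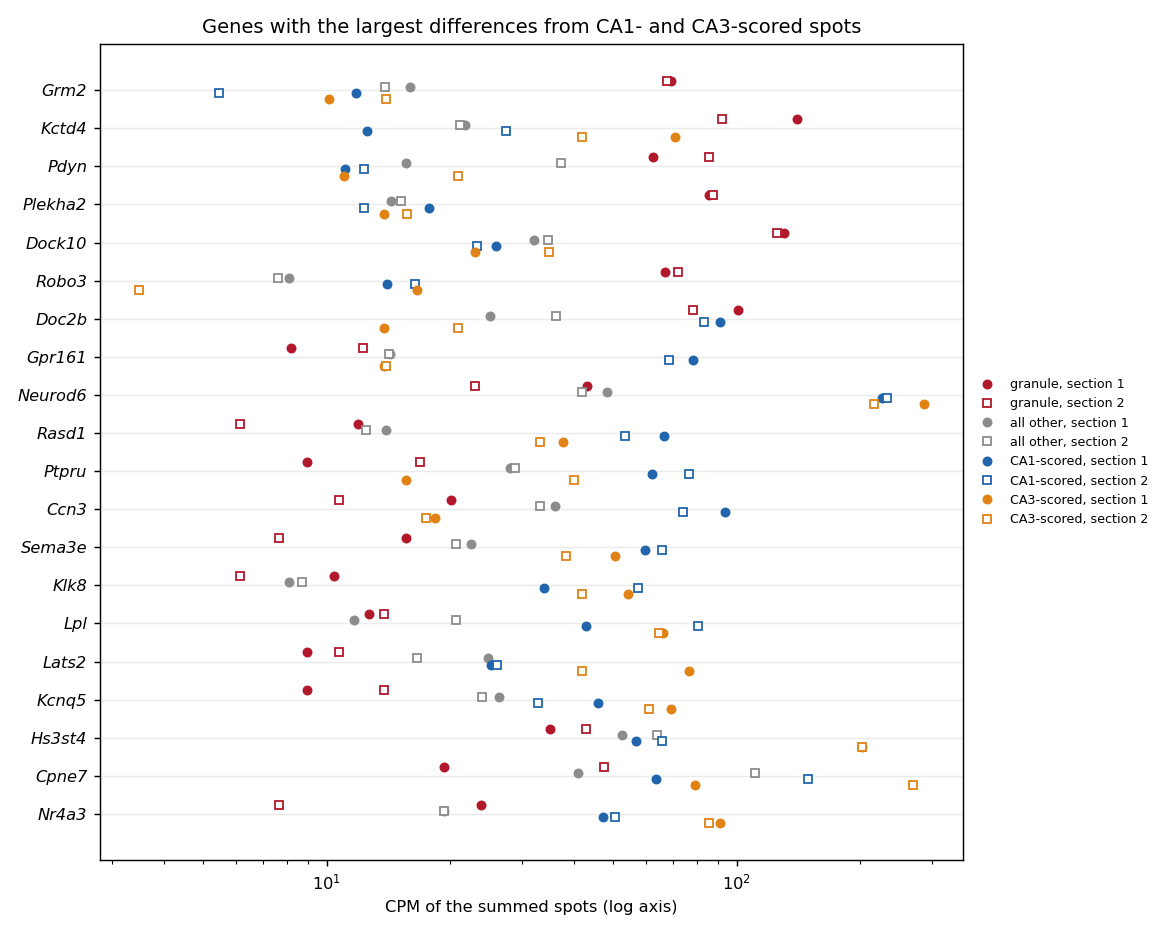
CPM, on a log axis, of 20 genes with large differences from CA1- or CA3-scored spots, in the 4 spot sets. Filled circles are section 1 and open squares section 2. From Grm2 to Robo3 both granule values lie to the right of all comparison values, and Neurod6 lies far to the left of both CA sets but close to all other spots.

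Granule spots varied among themselves. The summed level of the 18 dentate genes ran from 2290 to 7966 CPM in section 1, with a median of 5622, and from 3846 to 7524 CPM in section 2, with a median of 6362. It rose with the score across spots, with a Spearman rho of 0.65 over 40 spots and 0.77 over 22. The mitochondrial share ran from 5.22% to 22.2% in section 1 and from 6.91% to 18.7% in section 2 and fell with the score (rho -0.45 and -0.69). The summed astrocyte markers also fell (rho -0.44 and -0.49), and the summed forebrain transcription factors changed less (rho 0.29 and 0.26). These spots share a library within each section and the same total enters every value, so the correlations are descriptions across spots. The UMIs of a spot hardly followed the score (rho 0.16 and -0.02).

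**Figure D5:**
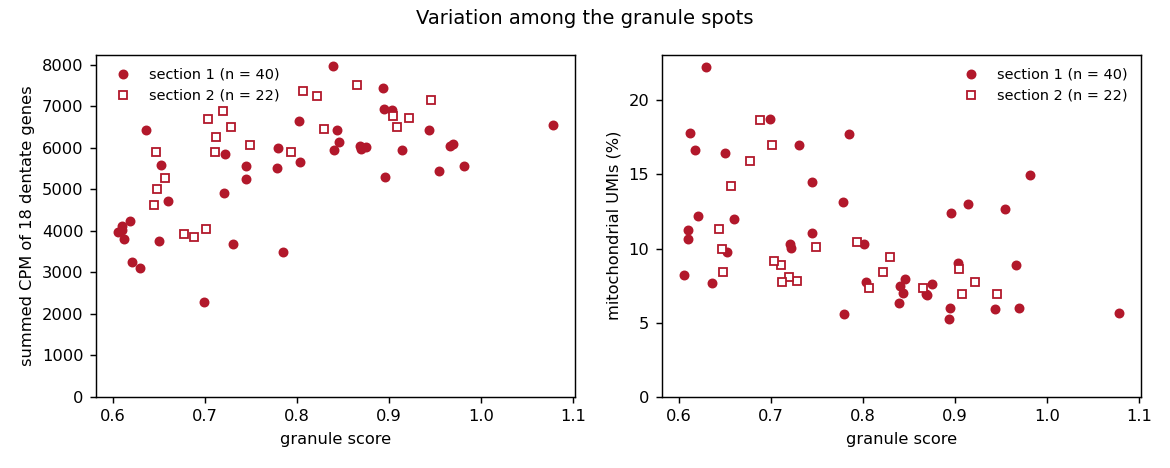
Summed CPM of the 18 dentate genes (left) and mitochondrial share of UMIs in percent (right) of each granule spot against its score. Filled circles are the 40 spots of section 1 and open squares the 22 of section 2. The dentate sum lies between 2290 and 7966 CPM, and spots of low score include those with the highest mitochondrial share.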

How the data were processed

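The authors deposited whole-number UMI counts for each gene in each spot, made with Space Ranger on mm10, per the submitters' processing notes. The file headers give version 1.2.2 for section 1 and 2.0.1 for section 2, whereas those notes give 2.0.1 for both. If the headers hold, version and section cannot be told apart. The annotation was not given in the sources used here. The files list 32285 genes. Sections held 58662871 and 55851559 UMIs. Spots under 500 UMIs, 137 and 2, were dropped. Spot positions were not used and no doublet caller was run.

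Counts were summed per section and spot set, and sums were tested with edgeR 4.0.16 (R 4.3.3; TMM factors, filterByExpr, section term, quasi-likelihood F test), checked on simulated data. P-values were Benjamini-Hochberg adjusted over all genes tested and the 5 score genes stayed out of tests. The SE is the log2 fold change divided by the square root of F. Alternatives used DESeq2 1.42.0 and limma 3.58.1 (log2 of mean CPM + 5). Named genes were the 15 largest rises and 8 largest falls against other spots and 8 each way against CA sets (adjusted p below 0.05, same sign in both sections, average log2 CPM of at least 5), the score genes, and members of lists (up to 8 called members of lists over 20 genes). Some of these genes are not reported here. Gene lists and the score were chosen with earlier results of these data known. Promoter sequences and positions are from RefSeq, GRCm38.p6. Other software was Python 3.11.15, pandas 2.3.3, numpy 2.4.6, scipy 1.17.1 and matplotlib 3.10.9.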

Additional observations from a re-analysis of the deposited data

How the results depend on the processing

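Counts of 2-fold calls kept within 1.5 times of the reported count under most alternatives, and the exceptions were these. Against all other spots, lower genes were 273 with DESeq2, 208 with limma on the mean CPM over spots and 320 without the section term, against 674. Without the granule sum of one section they were 0 to 48, and higher genes 43 to 210, in a fit of 3 sums with no section term, chosen after seeing the data. Of the genes called in the reported fit, 353 to 508 of the lower and 412 to 453 of the higher were also 2-fold in 1 section alone, with no test. Against CA1-scored spots DESeq2 gave 101 higher and 91 lower and limma 165 and 103, and against CA3-scored spots DESeq2 gave 103 and 80 and limma 101 lower. The cause was not tested. Without TMM factors the median log2 fold change over all genes tested against other spots moved from -0.07 to 0.03. Lct stood at a mean of 105.0 CPM over spots against 106.0 from summed counts. The log2 fold change of Gad1 against other spots ran from -0.29 without the granule sum of section 1 to 0.0102, a reversal, in section 1 alone. All 23, 15 and 16 reported genes of largest difference kept their call in each refit of all sums. Precision is limited by 2 sections and 1 residual degree of freedom. The section term of each reported fit pairs the granule and comparison sums of a section, and the fit without the section term, given above, is the one with no replicate block.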

Other observations

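Chosen after their values were seen, 2 genes differed between the sections in granule and other spots alike, with no test made. Cpne7, a copine, stood at 19.4 and 47.5 CPM in granule spots and at 40.9 and 111 in the others, and Penk, proenkephalin, at 72.9 and 165 CPM and at 75.3 and 321. The 2 sections also differ in the software version given by the file headers, though not in that given by the processing notes. The position of either section in the brain was not used here.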
